A study of Homo sapiens with 22 samples.

Results

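The clustered protocadherin genes form 3 neighbouring families, PCDHA, PCDHB and PCDHG, on human chromosome 5. They were followed here as every region of the deposited region tables that lies between 140.7 and 141.6 Mb of that chromosome (GRCh38), a window of 900 kb. The window held 146 regions of 409446 in all: 25 of 95436 for H3K27ac, 23 of 138731 for Jun, 58 of 66168 for CTCF and 40 of 109111 for Rad21. It contains the starts of 53 protein-coding family members, 15 of PCDHA, 16 of PCDHB and 22 of PCDHG. The cells were K562, a human leukemia line with the genotype WT, grown in RPMI with FBS. They received 25 nM PMA, a phorbol ester under which K562 cells take on megakaryocyte traits, and were collected after 0, 6 or 72 h. The assay is abbreviated CNR in the sample titles, taken here as CUT&RUN, in which an antibody directs a nuclease to cut out the DNA beside its target. The 22 libraries fall into 11 groups of 2, with H3K27ac, Jun and CTCF measured at all 3 times and Rad21 only at 0 and 72 h. The study follows looping as the cells differentiate, and it was asked here at which protocadherin elements these profiles changed over time.

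Clustered protocadherins are adhesion proteins of the cell surface, best known from neurons, where each cell uses a small choice of them and so gains an identity. In PCDHA and PCDHG each variable exon has a promoter of its own and is spliced to constant exons shared by the family, whereas PCDHB genes have no constant exons. Most of these promoters carry a conserved element with the core CGCT that the insulator protein CTCF binds, and many PCDHA variable exons carry a further CTCF site inside the exon. Distal enhancers, such as HS5-1 between PCDHA and PCDHB and a group near the 3′ end of PCDHG, reach the promoters through loops held by CTCF and cohesin, the ring complex of which Rad21 is a subunit. H3K27ac is a histone mark of active promoters and enhancers, and Jun is a subunit of the transcription factor AP-1, which phorbol esters activate.

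The promoter sequences are shown first because most CTCF values below lie at these elements. RefSeq promoter sequences (GRCh38.p14, 250 bases before to 50 after the gene start) were at hand for 47 of the 53 genes, in 52 entries. None was at hand for PCDHA3, PCDHA13, PCDHB6, PCDHB11, PCDHGA12 and PCDHGC5. The 30-base stretches below are from the + strand, with the CGCT core in capitals. PCDHA2, PCDHA7 and PCDHB15 are shown because CTCF or Rad21 there was called or came near the threshold, and PCDHB10 and PCDHGA10 because CTCF stood highest per length in their families. PCDHA6 is the PCDHA promoter whose CTCF was not below 0 at 72 h, and PCDHGC3 gained H3K27ac. At PCDHA5 the stretch is its promoter element, which lies outside the CTCF region measured inside the gene.

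PCDHA2 at chr5:140794783-140794812: tagccacatgatgtCGCTgtccaccataga
PCDHA5 at chr5:140821544-140821573: catccacatgatgtCGCTggacaccggaag
PCDHA6 at chr5:140827899-140827928: gagccgcatgatgtCGCTgtctaccatgaa
PCDHA7 at chr5:140834174-140834203: tggccacatgatgtCGCTctttaccgcaaa
PCDHB10 at chr5:141192301-141192330: aggccacacggtggCGCTgcaggctaaaga
PCDHB15 at chr5:141245316-141245345: acaacgcatggtggCGCTgcaggctaaggc
PCDHGA10 at chr5:141412933-141412962: aggactctgagcgcCGCTgttcacctacta
PCDHGC3 at chr5:141475882-141475911: gggactctgtgtgcCGCTgtcggccaatga

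The letters around the core differed between families, with some sharing. The letters TGTCGCT, searched on both strands, were in 10 of 13 PCDHA promoters against 1.757% of all 35116 promoter entries. TGGCGCT was in 13 of 14 PCDHB promoters against 4.075% of all entries. GNCGCTGT was in 19 of 25 PCDHG promoter entries, from 17 of 20 genes, against 4.346% of all entries. It was also in 1 PCDHB promoter and 5 PCDHA promoters, PCDHA2 and PCDHA6 among the latter. TGGCGCT was in 3 PCDHG genes and no PCDHA gene, and TGTCGCT in 3 PCDHG genes and 1 PCDHB gene. These motifs overlap in their core, and the letters were chosen after the sequences had been seen. CGCT alone was in 70.008% of all promoter entries. A missing match says only that these letters are not in the window. Counted from the gene start, the core of the matching stretches began at positions -81 to -38 in PCDHA, with a median of -51.5. The medians were -61 in PCDHB and -62 in PCDHG.

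Base composition differed along the cluster. The median GC content of the 300-base promoter was 37.3% in PCDHA, 40.8% in PCDHB and 47.3% in PCDHG. The promoters of PCDHA2 and PCDHGC3 are shown up to the gene start because CTCF fell at the first with time, while H3K27ac rose at the second. Capitals mark every CGCT on the + strand.

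PCDHA2 at chr5:140794602-140794851: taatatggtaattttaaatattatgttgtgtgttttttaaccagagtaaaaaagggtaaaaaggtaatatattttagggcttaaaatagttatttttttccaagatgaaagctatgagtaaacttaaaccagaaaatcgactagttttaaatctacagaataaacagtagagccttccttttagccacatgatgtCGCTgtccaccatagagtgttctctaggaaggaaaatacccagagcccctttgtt
PCDHGC3 at chr5:141475716-141475965: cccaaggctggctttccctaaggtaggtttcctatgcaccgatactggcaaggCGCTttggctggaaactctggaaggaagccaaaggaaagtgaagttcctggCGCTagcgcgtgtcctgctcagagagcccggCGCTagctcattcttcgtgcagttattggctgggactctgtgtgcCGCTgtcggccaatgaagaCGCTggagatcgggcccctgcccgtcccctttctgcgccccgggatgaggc

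The PCDHA2 stretch held 1 CGCT at 32% GC, and the PCDHGC3 stretch held 5 at 60% GC.

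Each H3K27ac library held between 12634261 and 27266241 counts in regions. Jun libraries held 4766421 to 18883962, CTCF libraries 2553677 to 6068421 and Rad21 libraries 4398797 to 7285286. Levels are given as CPM, the count scaled to a common library total (edgeR TMM scaling), and regions are compared with each other only as CPM per kb. Between replicates the r of log2 CPM across regions, which are not independent, lay between 0.865 (CTCF at 6 h) and 0.991 (H3K27ac at 0 h). Replicate 1 of CTCF at 6 h stood apart with a TMM factor of 0.783, so the CTCF values are also given below without the 6 h libraries where that mattered. Nothing in the labels says that replicates are separate cultures, so p-values measure the spread between these libraries, which may be technical. Of H3K27ac regions at 8 erythroid marker genes, all 8 were called lower at 72 h against 38.1% of all H3K27ac regions, among them KLF1, an erythroid transcription factor, with a change of -4.98 on the log2 scale. Of 7 measured megakaryocyte marker genes, 6 were called higher at 72 h against 43.4% of all, THBS1 with a change of 6.39, and 1 lower, ITGA2B with -0.59. Of 8 neural marker genes 5 had no tested region. Among the other 3, SNAP25 and RBFOX3 were called higher at 72 h and PAX6 lower.

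A difference was called when the Benjamini-Hochberg adjusted p of edgeR's quasi-likelihood test, run over all regions of the antibody, was under 0.05. Not all 146 regions passed the filter on low counts: 25 H3K27ac, 23 Jun, 57 CTCF and 37 Rad21 regions were tested. A region can pass this filter through the libraries of a single time alone, where it is high. Of the 146 regions, 23 overlapped no deposited peak in any library, and 65 overlapped a peak in both libraries of at least 1 time point.

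**Figure D1:**
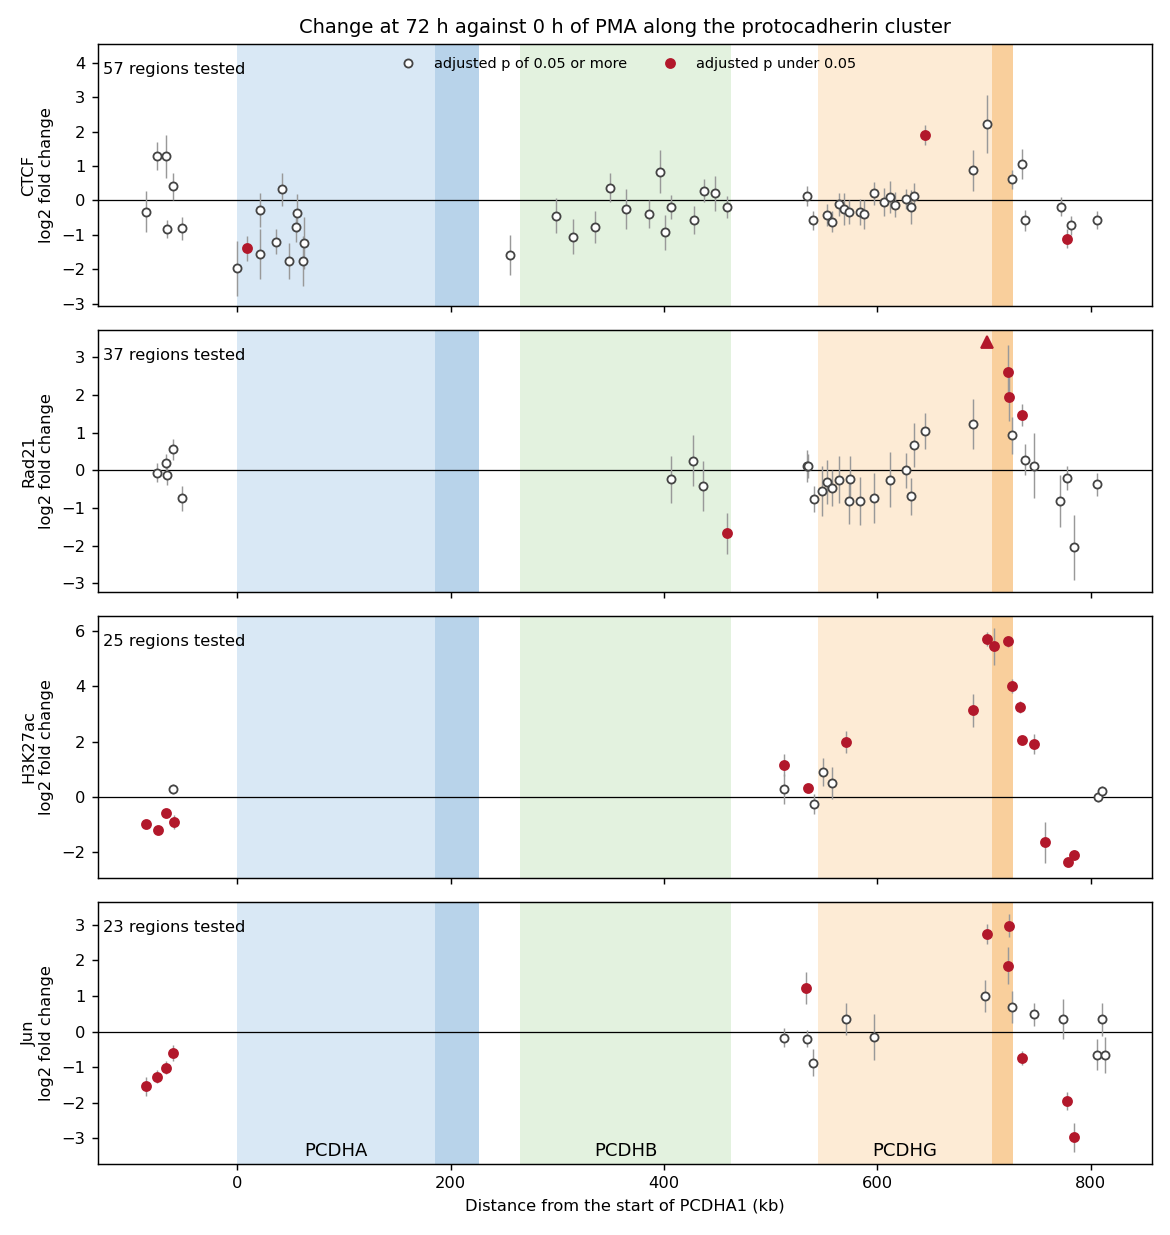
Log2 fold change at 72 against 0 h of every tested region (vertical axis) by distance from the PCDHA1 start in kb (horizontal axis), 1 panel per antibody, with error bars of 1 SE and filled points for called regions. Light and dark shading mark the variable and constant zones of PCDHA (blue) and PCDHG (orange), and green marks PCDHB. The triangle marks the lower bound of the Rad21 region at PCDHGC5. High H3K27ac and Jun points gather at the 3′ end of PCDHG, and CTCF points of PCDHA lie mostly below 0.

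CTCF regions lay near many of the family promoters, though not all. A CTCF region lay within 1 kb of the start of 36 of the 53 genes: 8 of 15 in PCDHA, 11 of 16 in PCDHB and 17 of 22 in PCDHG. There were 40 tested regions near starts (11 in PCDHA, 12 in PCDHB, of which 1 belongs to the pseudogene PCDHB18P, and 17 in PCDHG), and 33 of them contained the start itself. No CTCF region was near the starts of PCDHA3, PCDHA10 to PCDHA13, PCDHAC1, PCDHAC2, PCDHB1, PCDHB2, PCDHB8, PCDHB11, PCDHB12, PCDHGA1, PCDHGA5, PCDHGB4, PCDHGB6 and PCDHGC4. PCDHA10, PCDHA11 and PCDHA12 carry the letters TGTCGCT all the same. Besides a region at the start, PCDHA4, PCDHA8 and PCDHA9 had a further one inside the gene, centred 704, 475 and 467 bases after the start. At PCDHA5 the only region was centred 610 bases after the start. These 4 lie where the exonic CTCF sites of PCDHA are known to be.

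The level per length was lowest in PCDHA and highest in PCDHG. The median over near-start regions was 11.1 CPM per kb in PCDHA, 14.2 in PCDHB and 19.8 in PCDHG, as a description of these regions. PCDHGA10 was highest with 36.1 CPM per kb, and PCDHB10 led the PCDHB promoters with 20.6. In PCDHA the region inside PCDHA5 was highest with 17.4. The deposited peaks were sparser than the regions. A CTCF peak in both libraries was found near 11 of 53 starts at 0 h, 5 at 6 h and 10 at 72 h.

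Summed CTCF over the PCDHA starts, in TMM-scaled CPM, was lower at each later time, with no overlap between libraries. On that scale the mean sum over the PCDHB starts was also lower at each later time, but there the libraries overlapped. Over the 11 PCDHA regions the sum was 62.7 and 76.5 CPM at 0 h, 47.9 and 45.6 at 6 h, then 37.3 and 34.3 at 72 h. Every library at 0 h lay above every library at 6 h, and these above those at 72 h. The order of 6 and 72 h depended on the scaling. With TMM scaling 8 of 11 regions were below 0 at 72 against 6 h, with a median of -0.54. Under total-count scaling 6 of 11 were, with a median of -0.11 against 0.42 over all CTCF regions. Over the 12 PCDHB regions the sum was 86.2 and 91.7 CPM at 0 h, 70.2 and 95.6 at 6 h, then 80.6 and 75.2 at 72 h. The 6 h libraries were the lowest and the highest, and both 72 h libraries lay below both at 0 h. This order of 0 and 72 h did not hold under total-count scaling. There 6 of 12 regions were below 0 at 72 against 0 h, with a median of 0.003 against 0.26 over all. Over the 17 PCDHG regions the sum was 149 and 170 CPM, 159 and 173, and 174 and 167 at these times, and the groups overlapped.

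The single PCDHA regions moved alike in sign, and few passed the test. At 72 against 0 h, 10 of 11 were below 0 with a median of -1.23 on the log2 scale, and 1 was called lower. The median over all 58156 CTCF regions tested was 0.03. Over the alternatives that keep all libraries the PCDHA median ran from -1.33 to -0.98, and without single libraries from -1.52 to -1.09. In PCDHB 8 of 12 were below 0 with a median of -0.22 and none was called by edgeR (0 at an unadjusted p under 0.05 and 0 by DESeq2). The PCDHB median reached 0.00 under total-count scaling. In PCDHG 10 of 17 were below 0 with a median of -0.11, which was 0.11 under total-count scaling, and 1 was called higher. At 6 against 0 h all 11 PCDHA regions were below 0 with a median of -0.54, and none was called by edgeR (0 at an unadjusted p under 0.05 and 0 by DESeq2). Both comparisons use the same 0 h libraries.

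PCDHA2 was the PCDHA promoter called. Its region, chr5:140794622-140795407, holds the stretch printed above and read 11.5 and 16.6 CPM at 0 h, 12.3 and 6.51 at 6 h, then 4.84 and 5.62 at 72 h. Both 72 h libraries lay below both 0 h libraries. At 6 h, replicate 1 lay between the 0 h libraries, and replicate 2 lay below both of them and above both 72 h libraries. The change at 72 h was -1.39 ± 0.38 (SE, n = 2 per group) with an edgeR adjusted p of 0.0369. The call was lost in 5 of 11 alternatives, with DESeq2 and without any single library of 0 or 72 h, and the adjusted p ran from 0.00622 to 0.255 over the alternatives.

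PCDHA7 and PCDHA5 came close to the threshold. PCDHA7 (chr5:140833953-140834401) read 5.86 and 7.94 CPM at 0 h, 5.18 and 4.07 at 6 h, then 2.07 and 1.97 at 72 h. The 3 times did not overlap, and the change at 72 h was -1.75 ± 0.52 with an edgeR adjusted p of 0.0513. The site inside PCDHA5 (chr5:140821991-140822456) read 10.7 and 11.9, 6.80 and 9.36, and 5.07 and 4.78 CPM at these times. In TMM-scaled CPM the times did not overlap here either, but the order of 6 and 72 h depended on that scaling. The change at 72 h was -1.19 ± 0.37 with an edgeR adjusted p of 0.0568. PCDHA6 (chr5:140827632-140828144) was the 1 PCDHA promoter above 0 at 72 h, with 4.08 and 6.50 CPM at 0 h, 5.50 and 3.25 at 6 h, then 8.06 and 5.20 at 72 h. Its groups overlapped and the change was 0.33 ± 0.48. The region at PCDHA1 was faint, since its 0 h libraries had 14 and 6 counts and its 72 h libraries 5 and 3.

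The interval between PCDHA and PCDHB, where HS5-1 is known to lie, held 1 CTCF region and none of the other antibodies. This region, chr5:141041209-141041619, read 7.90 and 9.02 CPM at 0 h, 11.0 and 1.63 at 6 h, then 2.76 and 2.81 at 72 h. Both 72 h libraries lay below both 0 h libraries, and the 6 h libraries were the highest and lowest of all. The change at 72 h was -1.58 ± 0.58 with an edgeR adjusted p of 0.0925 and was not called.

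The number of calls depended on the 6 h libraries, which enter the shared estimate of spread. With the 0 and 72 h libraries alone, edgeR called 11 CTCF regions of the window at 72 h instead of 3: 3 higher and 8 lower. The lower ones included PCDHA2, PCDHA5, PCDHA7, PCDHA9 and the interval region. Over all CTCF regions the same setting called 20.1%, near the window's 11 of 55. Leaving out either 6 h library gave 10 calls of 58 in the window and 16.6% over all.

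**Figure D2:**
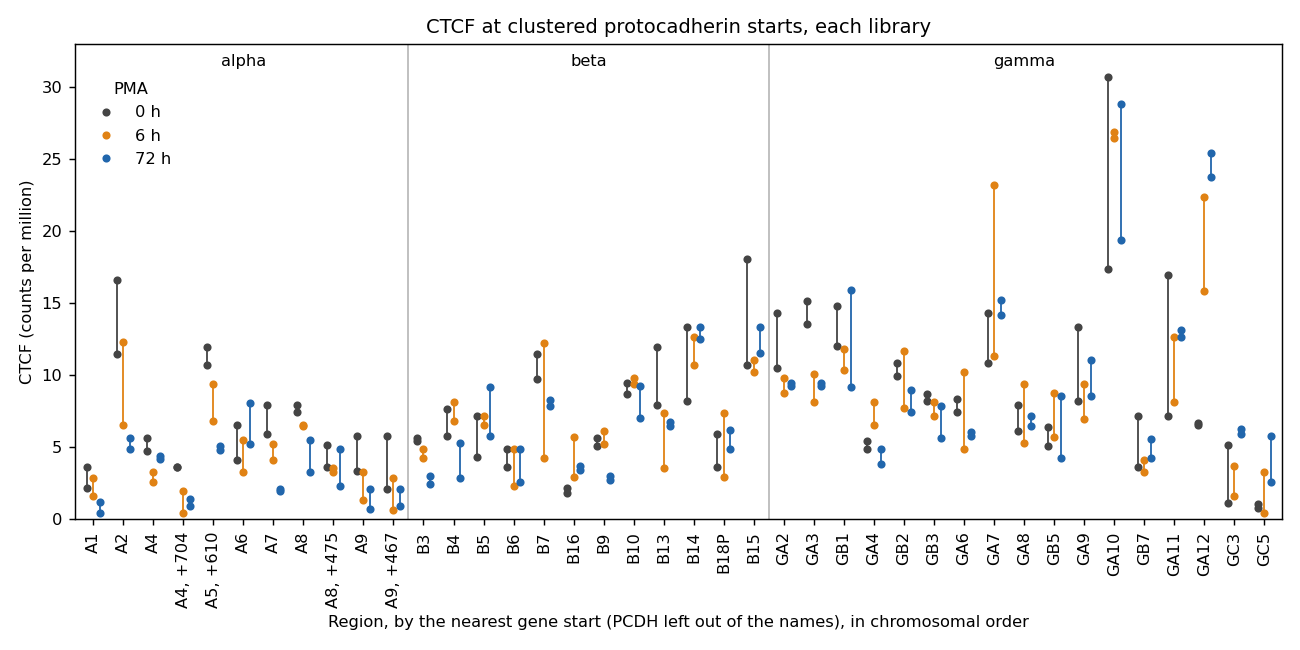
CTCF level in CPM (vertical axis) at each tested region within 1 kb of a family gene start (horizontal axis, in genome order). Vertical lines separate PCDHA, PCDHB and PCDHG. Points are the 2 libraries at 0, 6 and 72 h; a label such as A4, +704 marks a further region with its distance from the start in bases. PCDHA points at 72 h lie mostly below those at 0 h, and PCDHGA12 rises from 6.63 and 6.50 to 23.7 and 25.4 CPM.

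PCDHGA12 was the promoter at which CTCF was called higher. Its region, chr5:141430080-141430818, read 6.63 and 6.50 CPM at 0 h, 15.9 and 22.4 at 6 h, then 23.7 and 25.4 at 72 h. The 3 times did not overlap. The change was 1.53 ± 0.32 at 6 h (edgeR adjusted p 0.00991) and 1.901 ± 0.30 at 72 h (edgeR adjusted p 0.00454). Leaving out replicate 1 or replicate 2 of CTCF at 0 h ended both calls. Over the alternatives the adjusted p lay between 0.0022 and 0.153 for 6 h and between 5.31e-05 and 0.0794 for 72 h. A CTCF peak was found there in 1 library at 0 h and in both at 6 and 72 h.

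The strongest promoter by level, PCDHGA10 (chr5:141412526-141413216), was not called. It read 17.3 and 30.7 CPM at 0 h, 26.9 and 26.4 at 6 h, then 19.4 and 28.8 at 72 h, and the groups overlapped. The change at 72 h was 0.04 ± 0.30. The other PCDHG promoters with a CTCF region lay between -0.61 (PCDHGA3) and 2.22 (PCDHGC5) at 72 h. At PCDHGC5 (chr5:141488584-141488993) the counts were 4 and 2 at 0 h, 10 and 1 at 6 h, then 11 and 41 at 72 h. Its change of 2.22 ± 0.83 had an edgeR adjusted p of 0.0968, and the region passed the filter on low counts through its 72 h libraries alone. It was called with total-count scaling (0.0243), with only the 0 and 72 h libraries (0.0268) and without replicate 1 or 2 of 6 h (0.0403 and 0.0328).

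Inside the PCDHG constant zone lay 1 CTCF region, chr5:141512041-141512676. It read 15.0 and 10.8 CPM at 0 h, 21.0 and 17.9 at 6 h, then 21.7 and 18.5 at 72 h. The 0 h libraries were the lowest pair, with a change of 0.61 ± 0.28 at 72 h and an edgeR adjusted p of 0.163. A CTCF peak was found there in both libraries at every time.

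Over the whole window few CTCF regions were called. At 6 against 0 h, 1 of 57 tested regions was called (PCDHGA12, higher) against 2.65% of all tested CTCF regions (2.33% higher). At 72 against 0 h, 3 were called, 1 higher and 2 lower, against 6.79% of all (4.07% higher, 2.72% lower). At an unadjusted p under 0.05 there were 17, 5 higher and 12 lower, and the window's median was -0.32 against 0.03 over all. Total-count scaling gave 3 higher and 1 lower. The third called region, chr5:141564071-141564656, overlaps the spans of DIAPH1, an actin nucleator gene beyond PCDHG, and DIAPH1-AS1. It was the highest CTCF region of the window with 84.5 CPM per kb. It read 62.4 and 78.3 CPM at 0 h, 43.1 and 48.4 at 6 h, then 26.7 and 38.1 at 72 h. The times did not overlap in TMM-scaled CPM, but the order of 6 and 72 h depended on that scaling. Its change of -1.11 ± 0.27 (edgeR adjusted p 0.0254) was lost in 6 of 12 alternatives, among them each one that left out a library of 0 or 72 h. There the adjusted p reached 0.305, and the lowest was 0.00125. At 72 against 6 h edgeR called none of the 57 against 2.18% of all (0.449% higher, 1.73% lower), with 2 at an unadjusted p under 0.05 and 0 by DESeq2.

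Near the starts Rad21 lay at CTCF regions, and it was scarce in PCDHA. A Rad21 region lay near 17 starts, 4 in PCDHB and 13 in PCDHG, and all 18 such regions overlapped a CTCF region. In the PCDHA variable zone the 2 Rad21 regions were near no start and too faint to test. Over the window 80% of Rad21 regions overlapped a CTCF region against 36.9% over the genome, and 51.7% of CTCF regions overlapped a Rad21 region against 60.0%. The median was 9.19 CPM per kb at the PCDHB starts and 10.5 at the PCDHG starts, with PCDHGA10 highest at 14.8. No start had a Rad21 peak in both libraries of a time point.

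At 72 against 0 h, 5 of 37 tested Rad21 regions were called, 4 higher and 1 lower, against 23.3% of all tested Rad21 regions (15.4% higher, 7.91% lower). Total-count scaling gave 3 higher and 3 lower. The median over the 14 regions near PCDHG starts was -0.25 and over the 4 near PCDHB starts -0.33, against -0.05 over all. Without single libraries these medians ran from -0.49 to 0.07 and from -0.56 to 0.26, so neither kept its sign.

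The Rad21 gains lay at the 3′ end of PCDHG. At PCDHGC5 (chr5:141488777-141488984) both 0 h libraries had 0 counts and the 72 h libraries had 26 and 10, which is 3.87 and 1.89 CPM. Against a floor of 3 counts over the 0 h group the level was at least 10.6-fold higher, with an edgeR adjusted p of 0.00161. The region passed the filter on low counts through its 72 h libraries alone, overlapped a peak in no library, and gave no value with DESeq2, with a mean count of at least 50 or without replicate 1 of 72 h. The other 6 alternatives called it. In the PCDHG constant zone, chr5:141508473-141508679 went from 2 and 5 counts to 21 and 27, which is 0.314 and 1.06 to 3.13 and 5.09 CPM. The groups did not overlap, and the change was 2.62 ± 0.70 with an edgeR adjusted p of 0.00904. Like the region at PCDHGC5, this one passed the filter on low counts through its 72 h libraries alone. Without replicate 2 of 72 h the call was lost, with an adjusted p of 0.333. Neither this region nor the next overlaps a CTCF region.

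Its neighbour chr5:141509176-141509419 went from 5 and 5 counts to 23 and 20, or 0.786 and 1.06 to 3.42 and 3.77 CPM. Both libraries at 72 h lay above both at 0 h, and this region too passed the filter on low counts through its 72 h libraries alone. The change was 1.96 ± 0.64 (edgeR adjusted p 0.03), and the call was lost in 5 of 8 alternatives, with DESeq2, with total-count scaling and without replicate 1 of 0 h or either library of 72 h, where the adjusted p ran up to 0.285 from a lowest of 0.0224. The third Rad21 region of the zone, chr5:141512158-141512470, lies at the CTCF site described above. It read 1.89 and 2.53 CPM at 0 h and 4.02 and 4.34 at 72 h, with 0.93 ± 0.49 and an edgeR adjusted p of 0.168, and was not called.

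Beyond the end of PCDHG, chr5:141521033-141521740 in the DIAPH1 span read 5.50 and 5.70 CPM at 0 h and 13.4 and 17.9 at 72 h. The change was 1.47 ± 0.30 with an edgeR adjusted p of 0.00117, and it was called in all 9 alternatives. The region that fell was at PCDHB15 (chr5:141245164-141245493), around the stretch printed above. It read 5.35 and 3.59 CPM at 0 h and 1.64 and 1.13 at 72 h, from 34 and 17 to 11 and 6 counts, without overlap. The change was -1.67 ± 0.54 (edgeR adjusted p 0.0274), and the region passed the filter on low counts through its 0 h libraries alone. The call was lost in 4 of 8 alternatives: with DESeq2, without replicate 1 of 0 h and without either library of 72 h, with adjusted p up to 0.31 and as low as 0.0129. CTCF at PCDHB15 (chr5:141244975-141245611) read 10.7 and 18.04 CPM at 0 h and 13.4 and 11.5 at 72 h, so the groups overlapped. At PCDHGA12, where CTCF rose, Rad21 read 2.36 and 1.9 CPM at 0 h and 3.87 and 5.09 at 72 h, with 1.04 ± 0.48 and an edgeR adjusted p of 0.116.

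**Figure D3:**
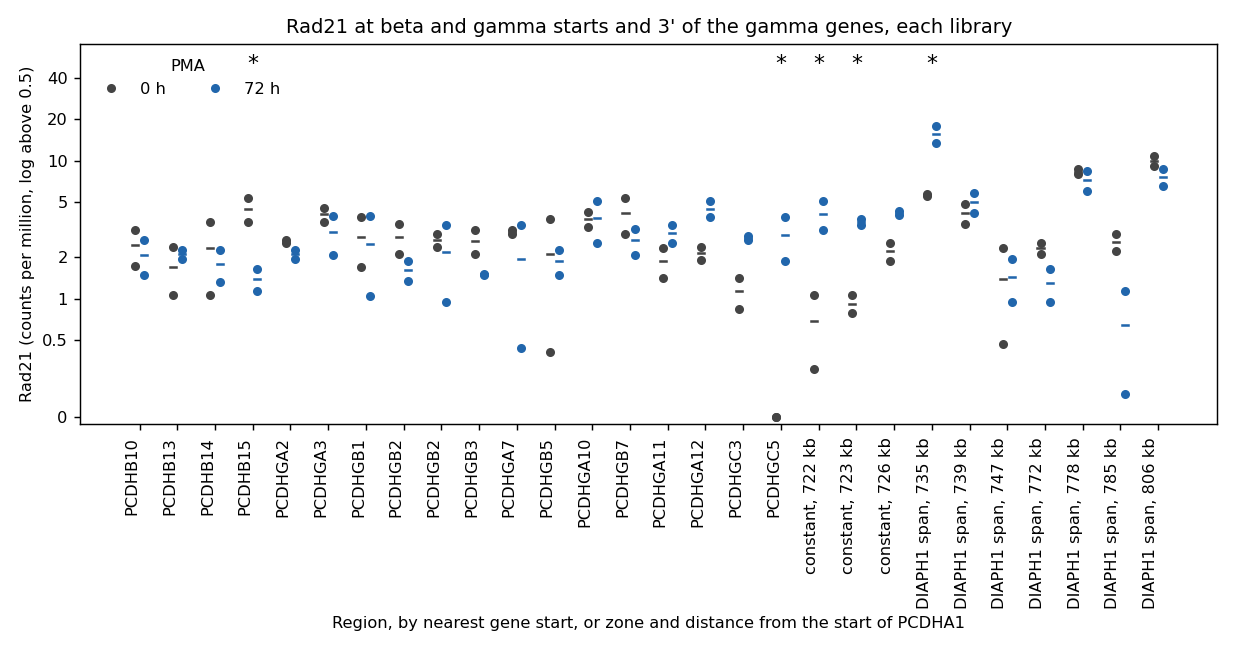
Rad21 level in CPM (vertical axis, linear below 0.5 and logarithmic above) at the Rad21 regions near protocadherin starts, in the PCDHG constant zone and in the DIAPH1 span (horizontal axis, in genome order). Points are libraries at 0 and 72 h, bars are means of 2 libraries, and asterisks mark called regions. The called gains stand at PCDHGC5, in the constant zone and in the DIAPH1 span, and the called loss at PCDHB15.

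H3K27ac was absent from the region lists of the PCDHA and PCDHB families. No H3K27ac or Jun region lay between the first PCDHA start and the last PCDHB end. Over the window, 12 of 25 H3K27ac regions passed at 6 against 0 h (8 higher, 4 lower, and 11 and 2 with total-count scaling) against 58.6% of all tested H3K27ac regions (32.3% higher, 26.3% lower). At 72 against 0 h, 18 were called (11 higher, 7 lower) against 81.5% of all (43.4% higher, 38.1% lower). At 72 against 6 h, 14 were called (10 higher, 4 lower, and 8 and 6 with total-count scaling) against 63.8% of all (33.1% higher, 30.8% lower). Counted over both directions, none of these shares exceeded the background. Of the single directions, higher calls at 72 h were at or somewhat above it. The median change at 72 h was 0.32 in the window and 0.18 over all regions.

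Of the 11 regions called higher at 72 h, 8 lay from PCDHGC3 to the first part of DIAPH1. The other 3 were at PCDHGA4, over TAF7 and at chr5:141298269-141298745 between PCDHB and PCDHG. The last of these read 0.795 and 1.00 CPM at 0 h, 0.6997 and 0.738 at 6 h, then 1.85 and 2.22 at 72 h. Its change at 72 h was 1.17 ± 0.39 (edgeR adjusted p 0.00869), lost with DESeq2 and without replicate 1 of 0 h or replicate 2 of 72 h (adjusted p 0.00253 to 0.0884). PCDHGC3, PCDHGC4 and PCDHGC5 are the C-type genes at the 3′ end of PCDHG, a subgroup set apart by its sequence. At PCDHGC5 the region chr5:141487847-141489744 read 0.398 and 0.422 CPM at 0 h, 2.94 and 3.69 at 6 h, then 21.2 and 22.6 at 72 h. The 3 times did not overlap, and the change was 3.02 ± 0.32 at 6 h (edgeR adjusted p 1.41e-08) and 5.72 ± 0.25 at 72 h (edgeR adjusted p 6.41e-17). A peak was found in no library at 0 h, 1 at 6 h and both at 72 h.

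PCDHGC3 (chr5:141476014-141476546) rose later. It read 0.114 and 0.263 CPM at 0 h, 0.210 and 0.295 at 6 h, then 1.45 and 2.00 at 72 h, so only the 72 h libraries stood apart. The change at 72 h was 3.14 ± 0.60 with an edgeR adjusted p of 3.63e-05, and the region passed the filter on low counts through its 72 h libraries alone. PCDHGA4 (chr5:141355907-141356726) was the other PCDHG variable region called. It read 0.681 and 0.632 CPM, then 1.19 and 1.82, then 2.35 and 2.88, without overlap between times. Its change was 1.22 ± 0.43 at 6 h and 1.98 ± 0.39 at 72 h. The 6 h call was lost with DESeq2 and without replicate 2 of 0 h or of 6 h, with adjusted p up to 0.208 from a lowest of 0.00333. The regions at PCDHGA3 and in the PCDHGA1 span were not called.

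All 3 H3K27ac regions of the PCDHG constant zone rose at both times. The zone is 18.9 kb long, and its summed level went from 1.19 and 2.58 CPM at 0 h to 21.4 and 22.2 at 6 h, then 58.0 and 64.4 at 72 h. The strongest, chr5:141507728-141509780, read 0.625 and 1.05 CPM, then 16.2 and 15.8, then 39.7 and 44.6. The change was 4.23 ± 0.21 at 6 h (edgeR adjusted p 1.16e-14) and 5.63 ± 0.19 at 72 h (edgeR adjusted p 7.96e-19), with no overlap between times. Both Rad21 regions called in this zone lie inside it.

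Next to it, chr5:141511639-141512440 covers part of the constant CTCF site. It read 0.568 and 1.42 CPM, then 4.34 and 5.76, then 15.3 and 17.5, a change of 2.34 ± 0.29 and 4.02 ± 0.25. The third region, chr5:141494967-141495541, had 0 and 2 counts at 0 h, 13 and 13 at 6 h, then 82 and 64 at 72 h. The ratio to 0 h was 13.7 (exact 95% interval 3.44 to 119) at 6 h and 48.5 (13.2 to 404) at 72 h, intervals that cover counting error only. Each of these calls at the constant zone and at PCDHGC5 held in every alternative run, single libraries left out included.

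**Figure D4:**
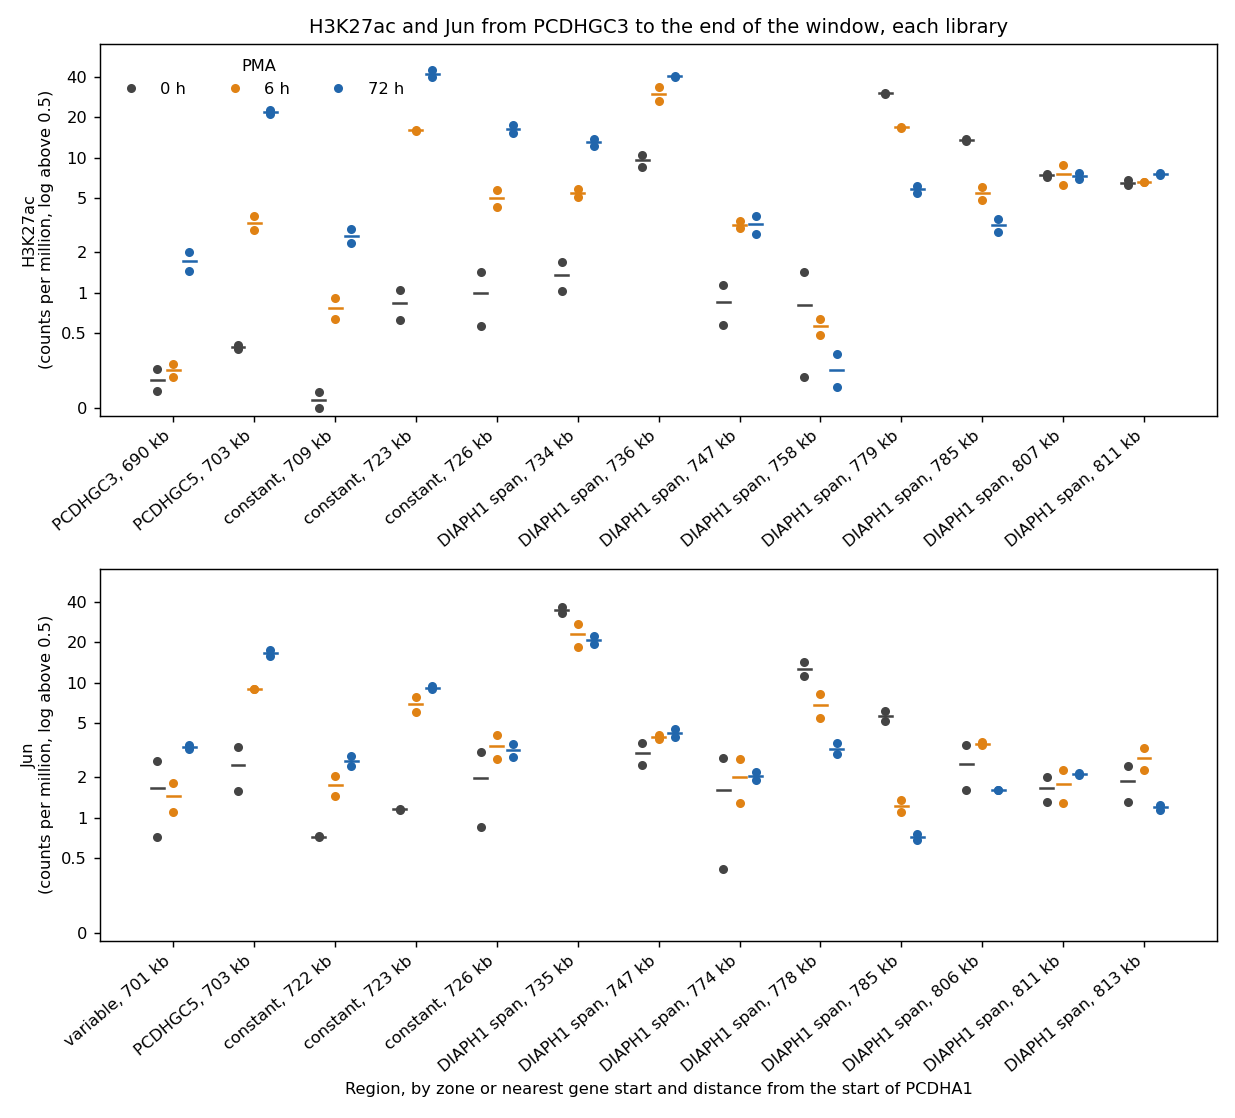
H3K27ac and Jun level in CPM (vertical axis, linear below 0.5 and logarithmic above) at the regions from PCDHGC3 to the DIAPH1 span (horizontal axis, in genome order). Points are libraries at 0, 6 and 72 h and bars are means of 2 libraries. H3K27ac rises in steps from 0 to 72 h at PCDHGC5 and in the constant zone, Jun rises at PCDHGC5 and at 2 regions of the constant zone, and each antibody falls at 2 regions farther into the DIAPH1 span.

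The stretch of gains continued into the DIAPH1 span and then turned. At chr5:141519924-141520640 H3K27ac read 1.02 and 1.69 CPM at 0 h, 5.11 and 5.86 at 6 h, then 12.3 and 13.8 at 72 h, a change of 2.01 ± 0.25 and 3.25 ± 0.23. At chr5:141520732-141522571 it read 8.63 and 10.6, 26.3 and 33.5, and 40.8 and 39.95 CPM, a change of 1.64 ± 0.14 and 2.07 ± 0.13. The times did not overlap at either region. At chr5:141532645-141533366 the change was 1.91 ± 0.36 at 6 h and 1.92 ± 0.35 at 72 h.

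Farther on, chr5:141564352-141565672 fell from 29.8 and 30.6 CPM at 0 h to 16.9 and 16.8 at 6 h, then 6.23 and 5.50 at 72 h, a change of -0.84 ± 0.12 and -2.36 ± 0.13. It touches the CTCF region of DIAPH1 that was called lower. The region chr5:141570389-141571566 fell from 13.5 and 13.8 CPM to 4.90 and 6.10 and to 3.55 and 2.84, a change of -1.29 ± 0.18 and -2.09 ± 0.18. The times did not overlap at either. The small region chr5:141543679-141543878 was called lower at 72 h (-1.64 ± 0.74, edgeR adjusted p 0.0432) on libraries with 25 and 4 counts before PMA, then 4 and 10. That call rested on replicate 1 of 0 h, without which the change was 0.26, and it was lost in 6 of 10 alternatives, with adjusted p from 0.00299 to 0.827. The last regions of the window, at chr5:141592235-141593130 and chr5:141596763-141597436, were not called.

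Upstream of PCDHA, H3K27ac fell by 72 h over the vault RNA genes VTRNA1-1 and VTRNA1-2 and the splicing factor gene ZMAT2. Over VTRNA1-3 (chr5:140725307-140726202) it was not called, with 0.29 ± 0.18 at 72 h. The H3K27ac region just beside it, chr5:140726280-140726895, was called lower at 72 h (edgeR adjusted p 0.00298). Jun over VTRNA1-3 (chr5:140725717-140726634) was also called lower at 72 h, with -0.60 ± 0.21 (edgeR adjusted p 0.0219). DESeq2 and total-count scaling did not call that Jun change. H3K27ac over VTRNA1-1 (chr5:140710283-140712401) read 50.5 and 52.9 CPM at 0 h, 37.9 and 41.4 at 6 h, then 22.8 and 22.1 at 72 h, a change of -0.38 ± 0.10 and -1.20 ± 0.11. The 6 h call was lost with total-count scaling and without replicate 2 of 0 h, with adjusted p up to 0.672 from a lowest of 0.000997. Over ZMAT2 (chr5:140700008-140701399) the change at 72 h was -0.98 ± 0.14. Between PCDHB and PCDHG, over TAF7, a general transcription factor gene, H3K27ac (chr5:141320048-141321606) read 19.4 and 20.02, 18.8 and 21.5, and 23.7 and 25.4 CPM, a change of 0.32 ± 0.12 at 72 h (edgeR adjusted p 0.0155). That call was lost without either library of 0 h or replicate 2 of 72 h, with adjusted p up to 0.105 from a lowest of 5.98e-05.

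Jun was called higher at PCDHGC5 and at 2 of its 3 regions in the constant zone. Over the window, 9 of 23 Jun regions passed at 6 against 0 h (2 higher, 7 lower) against 25.3% of all tested Jun regions (13.1% higher, 12.2% lower). At 72 against 0 h, 11 were called (4 higher, 7 lower, and 7 and 4 with total-count scaling) against 53.7% of all (28% higher, 25.7% lower). At 72 against 6 h, 5 were called (2 higher, 3 lower, and 4 and 0 with total-count scaling) against 26.2% of all (12.7% higher, 13.5% lower). The 6 h count was 5 with DESeq2, 2 higher and 3 lower, and 5 with total-count scaling, 3 higher and 2 lower.

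At PCDHGC5 Jun (chr5:141488305-141489497) read 3.35 and 1.58 CPM at 0 h, 9.08 and 8.94 at 6 h, then 15.8 and 17.5 at 72 h. The times did not overlap, and the change was 1.87 ± 0.33 at 6 h (edgeR adjusted p 0.000253) and 2.76 ± 0.28 at 72 h (edgeR adjusted p 1.26e-07). In the constant zone, chr5:141508970-141509766 read 1.17 and 1.15 CPM at 0 h, 6.13 and 7.85 at 6 h, then 9.46 and 8.96 at 72 h. The change was 2.60 ± 0.38 and 2.98 ± 0.33, again without overlap. Its neighbour chr5:141508463-141508765 read 0.729 and 0.717, 2.04 and 1.46, and 2.43 and 2.84 CPM, called at 72 h only (1.85 ± 0.52, edgeR adjusted p 0.00477). That call was lost with DESeq2 and without replicate 2 of 72 h, with adjusted p up to 0.0918 from a lowest of 0.000328. The third, chr5:141511840-141512155, lies in an H3K27ac region that rose but was not called for Jun, with 0.78 ± 0.51 and 0.69 ± 0.44.

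At the first DIAPH1 site the antibodies parted. Jun at chr5:141520981-141521772 read 33.1 and 36.7 CPM at 0 h, 18.4 and 27.4 at 6 h, then 22.1 and 19.4 at 72 h. Both later pairs lay below 0 h, with -0.60 ± 0.21 (edgeR adjusted p 0.0417) and -0.75 ± 0.20 (edgeR adjusted p 0.00287), while H3K27ac and Rad21 at the same site were called higher at 72 h. The Jun call at 6 h was lost in 8 of 12 alternatives, among them each that left out a library other than replicate 2 of 6 h (adjusted p 0.00211 to 0.217). The one at 72 h was lost with total-count scaling and without replicate 2 of 72 h (adjusted p 8.67e-06 to 0.456). The far DIAPH1 region chr5:141570568-141571058 fell from 5.25 and 6.16 CPM to 1.36 and 1.09 and to 0.761 and 0.679, a change of -2.22 ± 0.49 and -2.97 ± 0.41. At chr5:141564106-141564590 the change was -0.88 ± 0.28 and -1.96 ± 0.25, and the 6 h call was lost with DESeq2, with total-count scaling and without replicate 2 of 0 h, replicate 1 of 6 h or replicate 1 of 72 h (adjusted p 0.0111 to 0.167).

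Between PCDHB and PCDHG, Jun at chr5:141298040-141298749 dipped. It read 5.54 and 6.31 CPM at 0 h, 2.27 and 2.19 at 6 h, then 5.28 and 5.26 at 72 h. The change was -1.41 ± 0.37 at 6 against 0 h (edgeR adjusted p 0.00683) and 1.24 ± 0.34 at 72 against 6 h (edgeR adjusted p 0.0109). The second call was lost with DESeq2 and without replicate 2 of 6 h or either library of 72 h (adjusted p 0.00125 to 0.0937). A Jun peak was found there in both libraries at 0 h, in none at 6 h and in both at 72 h. Over VTRNA1-1 (chr5:140710517-140711651) Jun fell from 38.4 and 33.7 CPM to 24.5 and 20.1 and to 15.8 and 14.2, a change of -0.70 ± 0.20 and -1.26 ± 0.19, and the 6 h call was lost with total-count scaling and without replicate 1 of 0 h (adjusted p 0.00299 to 0.106).

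Peaks called by the authors in single libraries gave a coarser picture. Consensus peaks, peaks of replicate 1 that overlap one of replicate 2, numbered 12, 12 and 21 in the window for H3K27ac at 0, 6 and 72 h, and 7, 3 and 14 for Jun. For CTCF they numbered 21, 11 and 20, and for Rad21 8 at 0 h and 7 at 72 h. Over the genome, peaks per library went from 42125 and 42852 at 0 h to 65267 and 66147 at 72 h for H3K27ac, and from 31637 and 35072 to 92329 and 99102 for Jun. The rise in the window accompanied this rise over the genome.

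H3K27ac was lower at 72 h at listed regulators of CTCF, cohesin and silencing. As with the marker genes above, each gene was represented by its region of highest mean CPM. The share over all regions is therefore not a matched background, and whether the fall is particular to this list was not tested. Of 18 genes listed as CTCF, cohesin and silencing regulators, with ZNF143, MAZ and LDB1 among them, 17 had a tested region. At 6 h 13 were called lower against 26.3% of all regions, and none higher, with a median change of -0.46 that was -0.12 under total-count scaling. At 72 h all 17 were lower with a median of -0.79, against 38.1% of all regions. With total-count scaling 12 of the 17 were below 0 at 6 h and 17 at 72 h, the latter with a median of -0.56. At the CTCF gene the level went from 80.3 ± 1.44 CPM (SD, n = 2) at 0 h to 50.1 ± 3.85 at 6 h and 46.3 ± 6.85 at 72 h. At RAD21 it went from 77.7 ± 1.58 to 53.1 ± 3.27 and 43.8 ± 3.63. LDB1, which encodes a looping cofactor, fell most, a change of -2.33 ± 0.11 at 72 h. SMCHD1 and SETDB1, genes of silencing proteins known to act on this cluster, changed by -0.96 ± 0.11 and -1.17 ± 0.12. DNMT3B, a DNA methyltransferase gene, had no tested region. Of 10 non-clustered protocadherin genes, PCDH9 alone had a tested region, with -0.86 ± 0.28 at 72 h (edgeR adjusted p 0.00701).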

How the data were processed

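Per the file headers, the 4 deposited region tables hold the authors' raw counts per region and library, with their log2 fold changes and adjusted p-values. The 22 deposited peak lists, 1 per library, hold the authors' fold enrichment (a ratio) and −log10 p and q. The submitters' processing notes name Trim Galore 0.4.3, BWA 0.7.17, SAMtools 1.9, deepTools 3.0.1, MACS2 and bedtools 2.26, and both hg19 and hg38. Chromosome 20 positions up to 64331078 lie beyond hg19, so coordinates were read as GRCh38, 1-based. How regions were built is not given in the sources used here, and counts in regions are not sequencing depth.

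Counts were tested per antibody with edgeR 4.0.16 (R 4.3.3; filterByExpr, TMM, glmQLFit and glmQLFTest over all time points). The SE is the log2 fold change over the square root of F. The script was tested on simulated data. DESeq2 1.42.0 was an alternative. Consensus peaks shared at least 1 bp. Region positions were set against RefSeq gene spans (GRCh38.p14), which give no exons, so "near" means within 1 kb of a gene start and zones follow these spans. Variable zones end 5 kb after the last variable start.

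The members, gene lists and tests were chosen with earlier results of these data known. Regions named were, per antibody and zone, the one with the highest mean CPM; per comparison, up to 3 called regions with the largest change each way; CTCF and Rad21 regions near starts; and those in the intervals after PCDHA and PCDHG. Other regions named in counts were chosen after their values were seen.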

Additional observations from a re-analysis of the deposited data

How the results depend on the processing

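Of 700 recomputed values for 61 called region changes, 603 kept their direction and call, 96 lost the call and 1 reversed, and 36 changes were called in every alternative. The reversal was the H3K27ac change at chr5:141543679-141543878 at 72 h, which lay between -2.46 and 0.26 with 1 library removed, the latter without replicate 1 of 0 h. Total-count scaling and DESeq2 each called 5 of 23 Jun regions at 6 against 0 h, against 25.9% and 20.8% of all. DESeq2 called 1 of 23 Jun regions at 72 against 6 h (14.8% of all) and 2 of 31 Rad21 regions (10.2% of all). A mean count of at least 50 gave 1 CTCF call of 13 at 72 against 0 h (2.59% of all) and 1 Rad21 call of 6 (28.7% of all). With only the 0 and 72 h libraries, 11 of 55 CTCF regions were called at 72 against 0 h, against 20.1% of all. Same-numbered replicates deviated together weakly at most, with r of -0.02 to 0.06 for H3K27ac, Jun and Rad21. For CTCF r was 0.08 to 0.12, above 0 in every pair of times. Numbers were not taken as pairs. The replicate block gave 7 CTCF calls of 57 at 72 against 0 h, against 12.3% of all, and kept the other counts within 1.5 times. Leaving out 1 library, which leaves 1 in its group, moved the number of calls by a larger factor for Jun, CTCF and Rad21 than for H3K27ac. This held in the window and over all regions. The window's CTCF calls were lost without either library of 0 h, and its Jun calls at 72 against 6 h without either library of 72 h. The share called over all regions fell in each of these fits too. The cause was not tested.

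Peak counts moved most. With −log10 q of at least 10, consensus peaks at 0, 6 and 72 h were 7, 7 and 10 for H3K27ac, 4, 2 and 11 for Jun, 9, 6 and 11 for CTCF, and 2 and 1 for Rad21. With 50% overlap they were 9, 9 and 14, 5, 3 and 13, 15, 9 and 16, and 6 and 5. Single libraries had 13 to 14, 14 to 15 and 22 to 25 H3K27ac peaks, 8 to 9, 4 to 7 and 15 to 17 Jun peaks, 26 to 33, 14 to 25 and 23 to 38 CTCF peaks, and 15 to 16 and 13 to 15 Rad21 peaks.

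Total-count scaling moved the median over all regions at 6 and 72 against 0 h from 0.20 and 0.18 to 0.53 and 0.42 for H3K27ac, from 0.06 and 0.17 to 0.26 and 0.73 for Jun, from 0.02 and 0.03 to -0.16 and 0.26 for CTCF, and at 72 h from -0.05 to -0.25 for Rad21. Low counts limit CTCF and Rad21 here, and changes at their faint regions may have gone undetected.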

Other observations

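The authors' deposited table gives each region a label, and for H3K27ac and Jun these labels did not always follow the sign of its own fold changes. The label "downEarly" belongs to 7711 H3K27ac regions of the authors' deposited table, of which 5503 have a log2 fold change above 0 at 72 h, and the median over all with that label is 2.82. In the window, the H3K27ac region chr5:141564352-141565672 in the DIAPH1 span has a log2 fold change of -2.29 at 72 h in the authors' deposited table and the label "upLate". The H3K27ac region chr5:141520732-141522571 has 2.11 there and the label "downEarly". For Jun, chr5:141570568-141571058 has -2.83 in the authors' deposited table and the label "upLate". For Rad21 the labels follow the sign: in the authors' deposited table all 87 regions labelled "down" are below 0 and all 1898 labelled "up" are above 0. The labels were not used here.

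A CTCF region between PCDHB and PCDHG, chr5:141298383-141298582, was too faint to test. It had 12 and 5 counts at 0 h, none in either library at 6 h, then 6 and 11 at 72 h, and lies inside the Jun region chr5:141298040-141298749 whose level dipped at 6 h.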
